A study of Rattus norvegicus with 24 samples.

Results

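Androgen-responsive genes, 8 in number, were followed in the abdominal mammary gland of prepubertal rats given 17β-estradiol. The members were named genes, Odc1, Sat1, Slc45a3, Ndrg1, Tpd52, Homer2, Herc3 and Acsl3, and every probe set, a group of short array probes for a transcript, annotated to 1 of them alone was taken. This gave 11 probe sets for 8 genes, of 31042 probe sets tested for the whole array. The members were picked by name, with earlier results of these data known.

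The rats were Sprague-Dawley animals of both sexes. Osmotic pumps under the skin released the hormone at 0, 0.1, 1 or 10 µg/kg/day, the dose of 0 being the control, from postnatal day 21, at weaning, to postnatal day 33. Males at 0.1, 1 and 10 and females at 0.1, 1 and 10 were each compared with their own sex at 0, with 3 arrays in each of the 8 groups. The labels name no other agent and no altered gene, and give the sex as a gender label. Whether any array stands for its own animal is not stated in them, and the p-values therefore reflect array-to-array spread that could be partly technical. The deposited values are signed log values, read here as log2, relative to a zero point that appears to have been set within each sex. It is not in general the median of the 12 arrays of a sex, which was 0 in 12.9% of probe sets over males and 14.8% over females. For Tpd52 1381906_at, for example, that median was 0.20 in males and -0.19 in females. Absolute levels are therefore lost, a level is not compared between males and females below, and differences between doses take the zero point as shared by the arrays of a sex.

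Androgens such as testosterone and dihydrotestosterone are steroid hormones that act largely by changing transcription. Most of what is known of the genes that respond to them comes from human prostate cells, where several members of this list rise with androgen. In the mammary gland androgen opposes the growth that estrogen drives.

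Promoter sequence was available for 5 of the 8 members in RefSeq (build GRCr8), and the 250 bases before the annotated start were searched on both strands. The half-site of the androgen response element, AGAACA, was found in 0 of the 5, and in 17.5% of 33469 rat promoters of this length. Its palindrome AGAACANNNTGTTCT was also found in 0 of the 5, and in 0.012% of all promoters. The estrogen receptor half-site GGTCA lay in 3 of them, those of Sat1, Herc3 and Acsl3, and in 35.4% of all promoters. The estrogen palindrome GGTCANNNTGACC, which contains that half-site, lay in 0 of the 5 and in 0.0239% of all. The GC box GGGCGG lay in all 5, Odc1 and Slc45a3 included, and in 30.5% of all promoters. A match is a string of letters and not a binding site. Ndrg1, Tpd52 and Homer2 are named only. The sequences of Sat1 and Slc45a3 are shown because both genes varied with luminal epithelial markers from array to array within a group, and that of Acsl3 because a like relation was not found for it there. Capitals mark GGTCA or its reverse complement.
Sat1 (chrX:44007839-44008088, plus strand): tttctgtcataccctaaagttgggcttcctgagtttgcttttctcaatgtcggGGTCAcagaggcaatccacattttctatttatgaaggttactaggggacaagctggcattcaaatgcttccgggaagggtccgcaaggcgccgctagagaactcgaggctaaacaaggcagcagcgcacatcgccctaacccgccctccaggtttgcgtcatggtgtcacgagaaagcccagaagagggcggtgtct
Slc45a3 (chr13:45959217-45959466, plus strand): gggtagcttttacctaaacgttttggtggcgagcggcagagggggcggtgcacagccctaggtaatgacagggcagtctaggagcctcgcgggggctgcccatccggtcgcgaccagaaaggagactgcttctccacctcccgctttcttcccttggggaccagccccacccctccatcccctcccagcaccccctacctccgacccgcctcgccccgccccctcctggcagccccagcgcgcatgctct
Acsl3 (chr9:87563351-87563600, plus strand): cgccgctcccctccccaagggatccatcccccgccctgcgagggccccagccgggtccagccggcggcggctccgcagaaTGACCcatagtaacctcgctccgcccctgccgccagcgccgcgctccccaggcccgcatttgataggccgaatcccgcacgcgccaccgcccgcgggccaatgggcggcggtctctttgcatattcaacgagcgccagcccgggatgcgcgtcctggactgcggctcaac

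Arrays differed in the tissue they held. Male controls 2 and 3 had hepatocyte marker means, over 16 genes, of 1.38 and 2.48, and female control 1 had 2.37. Replicate 7 of each sex, at dose 1, had 1.07 in males and 0.83 in females, and the other 19 arrays lay between -0.72 and 0.19. Without these 5 arrays 1 male control is left, and 0 member probe sets passed in any comparison. The mean of 17 white adipocyte markers was lower at 10 than at 0 in both sexes. It was -0.85 to -0.62 in males at 10 against 0.39 to 0.55 in males at 0. For females it was -0.50 to -0.25 at 10 against 0.31 to 0.55 at 0. The mean of 19 luminal epithelial markers, genes of the cells that line the ducts, was -0.11 to 0.29 in males at 10, 0.28 to 0.55 in males at 1 and -1.04 to -0.0039 in males at 0. In females it was 0.04 to 0.49 at 10 and -0.37 to -0.10 at 0. In whole glands, fewer cells of a type and less RNA per cell cannot be told apart.

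At 10 µg/kg/day, 2 of the 8 genes rose in males and 1 rose in females. Sat1 and Tpd52 (with 1 of its 2 probe sets) rose in males, by 0.66 and 0.61 on the log2 scale, and Ndrg1 rose in females, by 0.97 and 0.98 with its 2 probe sets. The same Tpd52 probe set also rose in males at 1 µg/kg/day. No member fell past the threshold, an adjusted p of 0.05, in any comparison.

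The members passed in 3 of the 11 comparisons, and in males at 10 at about the rate of all probe sets. In males at 10 against 0, 2 of 11 member probe sets (18.2%) passed, with a background of 17.5% of all probe sets. In males at 1 the count was 1 of 11 (9.09%), with a background of 3.63%, and in females at 10 it was 2 of 11 (18.2%), with a background of 1.86%. Both female calls belong to Ndrg1. Over all probe sets the calls split into 7.81% higher and 9.64% lower in males at 10, 1.53% and 2.1% in males at 1, and 0.812% and 1.05% in females at 10. The counts were 0 of 11 in males at 0.1, in females at 0.1 and in females at 1, where limma also called 0 of all probe sets, a background of 0%. At an unadjusted p of 0.05 the member counts were 3, 5 and 4 in males at 0.1, 1 and 10, with backgrounds of 11.9%, 18.5% and 32.1%, and 1, 0 and 7 in females at 0.1, 1 and 10, with backgrounds of 9.93%, 2.73% and 13%. The median difference of the 11 probe sets was 0.33, 0.31 and 0.10 in males at 0.1, 1 and 10, and 0.02, 0.03 and 0.37 in females at 0.1, 1 and 10. The median over all probe sets lay between -0.0132 and -0.00349 in these 6 comparisons. Within each sex the 3 doses share the same 3 control arrays.

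Without the 5 arrays with hepatocyte transcripts, replicate 1 was the only male control left. It was the lowest male control for Sat1 (-0.44) and for Tpd52 1391880_at (-0.66). In males at 10 Sat1 was then 0.78 and Tpd52 1391880_at 0.81, and in males at 1 the same Tpd52 probe set was 0.77. These male sizes rest on that 1 control, and leaving it out instead gave smaller differences, given below for each gene. In females at 10, without the 5 arrays, Ndrg1 was 0.95 ± 0.23 and 0.95 ± 0.24 and did not pass (adjusted p = 0.105 and 0.119). The beta-actin 3′ minus 5′ value, a sign of RNA quality, was -0.02 to 0.16 in males at 10, against -0.56 to -0.06 in males at 0. With it as a covariate Sat1 and Tpd52 1391880_at in males at 10 were 0.34 ± 0.20 and 0.37 ± 0.22 (adjusted p = 0.439 for each), and the female Ndrg1 differences were 1.04 and 1.04 (adjusted p = 0.00734 and 0.0154).

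**Figure D1:**
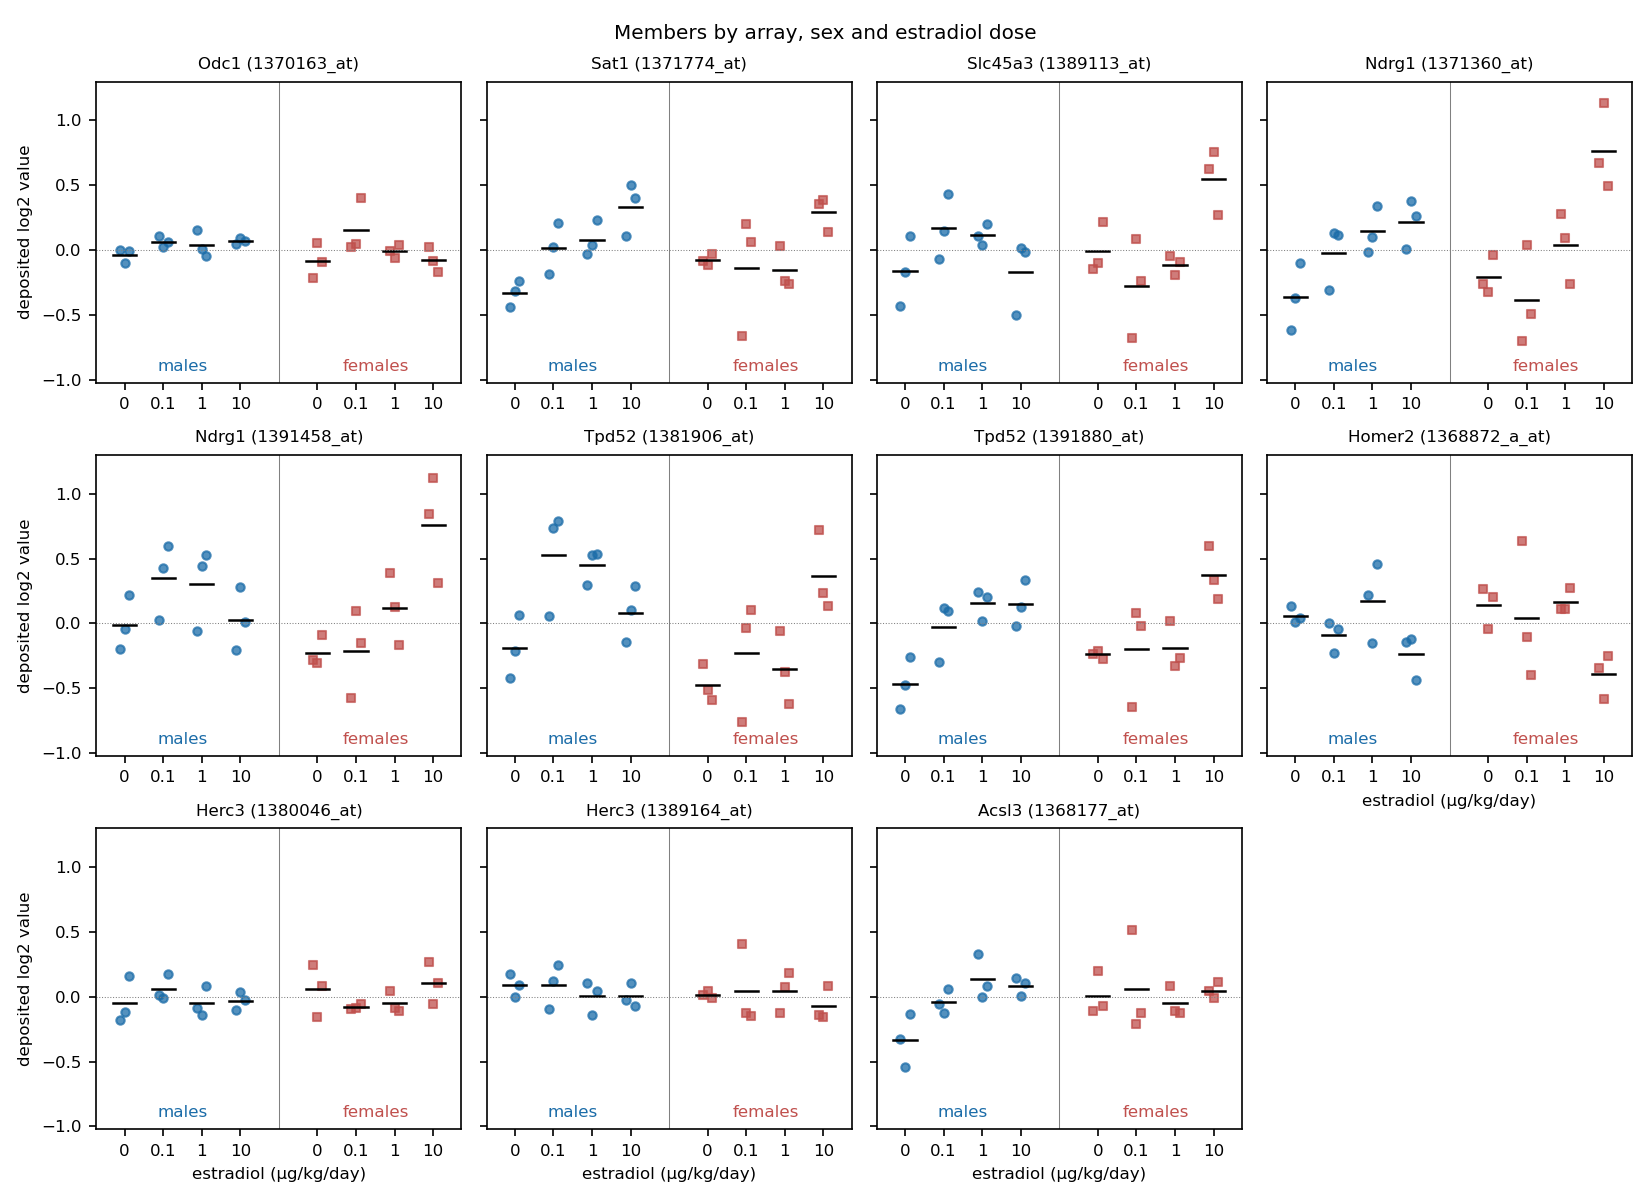
Deposited log2 values of the 11 member probe sets (vertical axis), by estradiol dose in µg/kg/day (horizontal axis), with males left and females right in each panel. Points are arrays and bars are means of 3 arrays. Sat1 in males has all 3 arrays at 10 above all 3 at 0. Among the female doses both Ndrg1 probe sets have their highest mean at 10.

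Sat1 encodes spermidine/spermine acetyltransferase, the rate-limiting enzyme of polyamine breakdown. In males its values were -0.44, -0.31 and -0.23 at 0, -0.18, 0.03 and 0.21 at 0.1, -0.03, 0.04 and 0.24 at 1, and 0.11, 0.50 and 0.40 at 10. All 9 treated male arrays lay above all 3 controls. The difference at 10 was 0.66 ± 0.17 (SE, n = 3 arrays each, limma adjusted p = 0.01), a fold of 1.59 with a 95% interval of 1.25 to 2.02 if the values are log2. At 0.1 and 1 it was 0.35 ± 0.17 (adjusted p = 0.419) and 0.41 ± 0.17 (adjusted p = 0.181), neither past the threshold. The call at 10 was lost without male replicate 1 at 0 (0.61, adjusted p = 0.0521) and without male replicate 11 at 10 (0.58, adjusted p = 0.0561). In females the values of Sat1 were -0.08, -0.11 and -0.03 at 0, -0.66, 0.20 and 0.06 at 0.1, 0.03, -0.23 and -0.26 at 1, and 0.36, 0.39 and 0.14 at 10. The arrays at 10 were the high ones, apart from 1 array at 0.1, and did not overlap the controls, yet the difference of 0.37 ± 0.17 did not pass (adjusted p = 0.335). The male minus female difference at 10 was 0.29 ± 0.23 (adjusted p = 0.518).

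Odc1, the enzyme that makes putrescine and opens polyamine synthesis, is the other polyamine gene of the list and is induced by androgens in rodent kidney and prostate. It stayed within -0.21 to 0.40 on all 24 arrays. Its 6 differences from dose 0 ran from 0.0053 to 0.24, with a lowest adjusted p of 0.384. In males at 10 the values were 0.05, 0.09 and 0.07, against 0.0048, -0.10 and -0.0048 in males at 0, groups that did not overlap but differed by only 0.10 ± 0.09 (adjusted p = 0.462).

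In the wider polyamine pathway probe sets passed in males at 10 at a share near that of the whole array. Besides Odc1 and Sat1 it was measured by 22 probe sets for 17 genes, and in males at 10 against 0, 3 rose, 2 fell and 17 did not pass (22.7% called, with a background of 17.5%). Sms, spermine synthase, had values of 0.51, 0.48 and 0.33 in males at 10 and -0.28, -0.19 and -0.57 in males at 0 with probe set 1394243_at. Every male array at 10 was far above every control, and the difference was 0.79 ± 0.15 (adjusted p = 0.00181). The other Sms probe set rose by 0.76 ± 0.15 (adjusted p = 0.00172), and both also passed in males at 1, at 0.65 ± 0.15 and 0.62 ± 0.15. These 2 were the only calls among the 22 in males at 1 (9.09%, with a background of 3.63%). Smox, which oxidises spermine, rose by 0.32 ± 0.10 in males at 10 (adjusted p = 0.0324). Srm, spermidine synthase, fell by 0.46 on the log2 scale (SE 0.10, adjusted p = 0.00538). Oaz2, an antizyme that restrains ornithine decarboxylase, fell by 0.47 with probe set 1374129_at (SE 0.15, adjusted p = 0.033), while its other probe set gave -0.26 ± 0.14 (adjusted p = 0.197). In females at 10 limma called 0 of the 22, with a background of 1.86%, and 2 were below an unadjusted p of 0.05, with a background of 13%. The lowest p values were those of Azin2, an antizyme inhibitor (-0.25 ± 0.10, adjusted p = 0.24), and Smox (0.23 ± 0.10, adjusted p = 0.311). With each left-out array in turn, Sms 1394243_at and Srm kept the call in males at 10 in all 24 fits, Smox in 20 and Oaz2 1374129_at in 18. In 10 other fits, with changed normalization, weights, covariates, arrays or filter, some of these calls were less steady. Sms 1394243_at held in 9, Srm in 8, Oaz2 1374129_at in 6 and Smox in 4. The smallest differences there were 0.69, -0.32, -0.25 and 0.13, in that order.

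**Figure D2:**
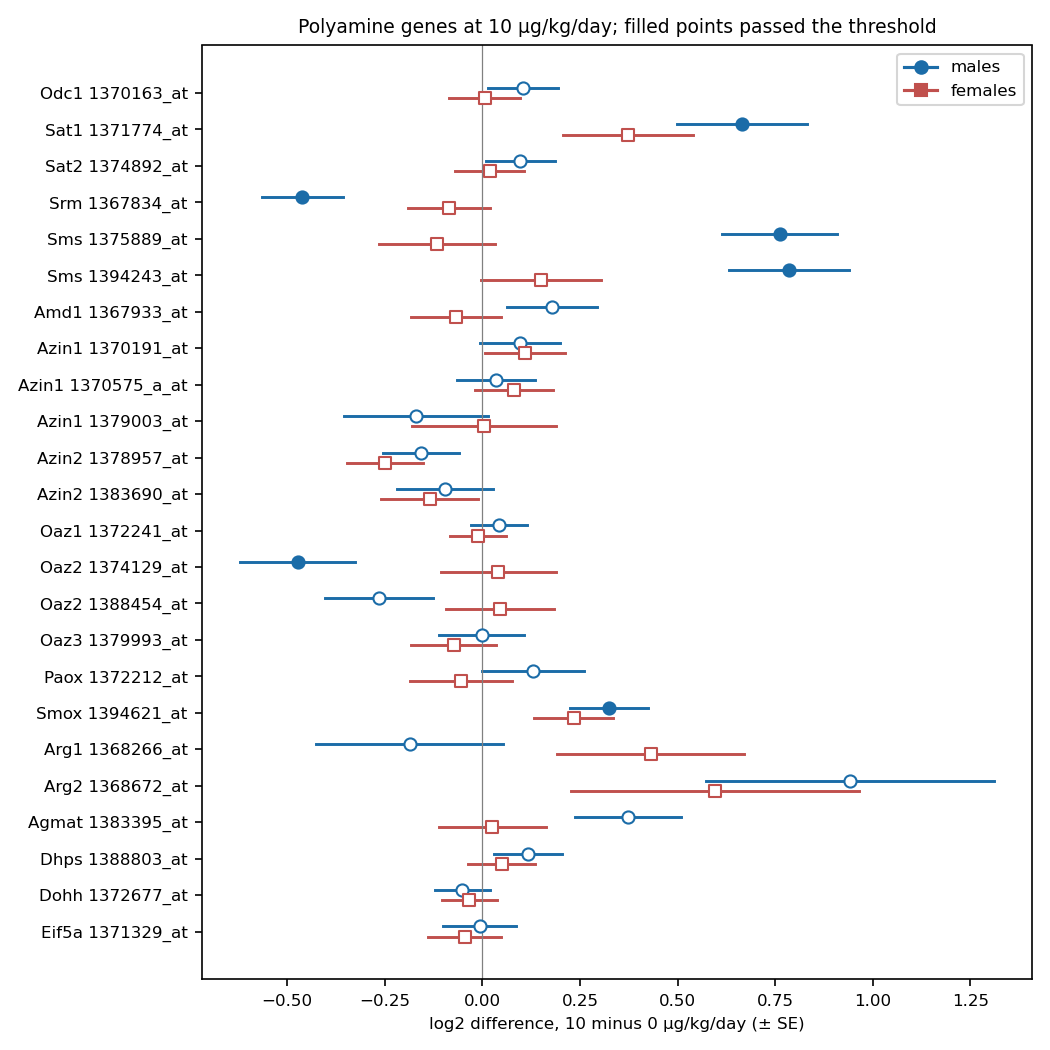
Log2 difference between 10 and 0 µg/kg/day (horizontal axis) for Odc1, Sat1 and the 22 other polyamine probe sets (vertical axis), with males above females in each row. Bars are 1 SE and filled points passed the adjusted p threshold. Filled points are all male: Sat1, both Sms probe sets and Smox to the right of 0, and Srm and 1 Oaz2 probe set to the left.

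Ndrg1, an N-myc downstream-regulated protein that rises with androgen in human prostate cells and also with low oxygen, was higher in females at 10. With probe set 1371360_at the female values were -0.26, -0.32 and -0.04 at 0, -0.70, 0.04 and -0.49 at 0.1, 0.28, 0.10 and -0.26 at 1, and 0.67, 1.13 and 0.49 at 10. With 1391458_at they were -0.28, -0.30 and -0.09 at 0, -0.57, 0.09 and -0.15 at 0.1, 0.39, 0.13 and -0.17 at 1, and 0.84, 1.12 and 0.31 at 10. All 3 arrays at 10 lay above all controls with both probe sets, the highest being replicate 11. The differences were 0.97 ± 0.20 (adjusted p = 0.0165) and 0.98 ± 0.22 (adjusted p = 0.0244), folds of 1.96 and 1.98 if the values are log2. At 0.1 and 1 the female arrays overlapped the controls. Without female replicate 11 the differences at 10 were 0.79 (adjusted p = 0.0906) and 0.80 (adjusted p = 0.123), and without replicate 10 they were 1.02 (adjusted p = 0.0558) and 0.94 (adjusted p = 0.11). Without control replicate 1 they were 0.95 for each (adjusted p = 0.0707 and 0.0943) and without control replicate 2 they were 0.92 and 0.94 (adjusted p = 0.0707 and 0.0923). Without control replicate 3, 1391458_at gave 1.05 (adjusted p = 0.0557). Fitted with these 2 groups only, neither passed (adjusted p = 0.0742 and 0.0962).

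In males the 2 Ndrg1 probe sets parted. With 1371360_at the male values were -0.61, -0.37 and -0.10 at 0, -0.31, 0.14 and 0.11 at 0.1, -0.01, 0.10 and 0.34 at 1, and 0.01, 0.38 and 0.26 at 10. The arrays at 1 and 10 lay above all controls, and the difference at 10 was 0.57 ± 0.20 (adjusted p = 0.0553), short of the threshold. With 1391458_at the male values were -0.20, -0.04 and 0.22 at 0, 0.03, 0.42 and 0.59 at 0.1, -0.06, 0.44 and 0.52 at 1, and -0.20, 0.28 and 0.01 at 10. These groups overlapped, and the difference at 10 was 0.04 ± 0.22 (adjusted p = 0.926). The male response at 10 minus the female one was -0.94 ± 0.31 for 1391458_at, which did not pass (adjusted p = 0.123).

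Tpd52 encodes a small coiled-coil protein of vesicle traffic that is abundant in human breast and prostate cancers. With probe set 1391880_at the male values were -0.66, -0.48 and -0.26 at 0, -0.30, 0.12 and 0.09 at 0.1, 0.24, 0.02 and 0.20 at 1, and -0.02, 0.13 and 0.34 at 10. The arrays at 1 and 10 all lay above the controls, and 10 minus 1 gave -0.0057 ± 0.17. The difference from 0 was 0.62 ± 0.17 at 1 (adjusted p = 0.0466) and 0.61 ± 0.17 at 10 (adjusted p = 0.0167). At 10 it was lost without male replicate 1 at 0 (0.52, adjusted p = 0.0954) and without replicate 12 at 10 (0.52, adjusted p = 0.0802). At 1 it lay close to the threshold: with 1 array left out it kept the call in 8 of 24 fits, those without male replicate 3 or 4 or without female replicate 4, 5, 6, 7, 10 or 12, and lost it without each of the others. Its difference ran from 0.52 without male replicate 1 (adjusted p = 0.231) to 0.72 without male replicate 3 (adjusted p = 0.0353).

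The other Tpd52 probe set, 1381906_at, had male values of -0.42, -0.21 and 0.07 at 0, 0.06, 0.74 and 0.79 at 0.1, 0.30, 0.53 and 0.53 at 1, and -0.14, 0.10 and 0.29 at 10. Its male arrays were highest at the lower doses, and the difference at 10 was 0.27 ± 0.23 (adjusted p = 0.441). In females Tpd52 was higher at 10 with both probe sets without passing. The values of 1381906_at were 0.72, 0.24 and 0.14 in females at 10 and -0.31, -0.51 and -0.59 in females at 0, and those of 1391880_at were 0.60, 0.34 and 0.19 at 10 and -0.23, -0.21 and -0.27 at 0. At 0.1 and 1 the female arrays of 1391880_at ran from -0.64 to 0.08 and from -0.33 to 0.02. The groups at 10 and 0 did not overlap, and the differences were 0.84 ± 0.23 (adjusted p = 0.0657) and 0.61 ± 0.17 (adjusted p = 0.0679). For 1391880_at the female difference of 0.61 stands beside the male one of 0.61.

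Slc45a3, prostein, is a membrane transporter known as an androgen-regulated gene of the human prostate. Its values were 0.63, 0.75 and 0.27 in females at 10 and -0.14, -0.10 and 0.22 in females at 0. The groups did not overlap, though the lowest array at 10 was only just above the highest control, and 0.56 ± 0.19 did not pass (adjusted p = 0.154). In males the values were -0.50, 0.02 and -0.02 at 10 and -0.43, -0.17 and 0.11 at 0, which overlapped, with a difference of -0.0051 ± 0.19 (adjusted p = 0.989). The male minus female difference at 10 was -0.57 ± 0.27 (adjusted p = 0.257).

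Acsl3, a long-chain acyl-CoA synthetase of the endoplasmic reticulum and lipid droplets, was higher in treated males without passing. Its male values were -0.32, -0.54 and -0.14 at 0, -0.06, -0.12 and 0.06 at 0.1, 0.33, -0.0038 and 0.08 at 1, and 0.15, 0.0038 and 0.11 at 10. All 9 treated male arrays lay above the controls. The differences were 0.29 ± 0.15 (adjusted p = 0.434) at 0.1, 0.47 ± 0.15 (adjusted p = 0.0839) at 1 and 0.42 ± 0.15 (adjusted p = 0.0583) at 10. In females the difference at 10 was 0.04 ± 0.15 (adjusted p = 0.946), and the male minus female difference at 10 was 0.38 ± 0.21 (adjusted p = 0.338).

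Homer2, a scaffold protein that binds metabotropic glutamate receptors, had the most negative difference of the members at 10 in both sexes. Its values were -0.34, -0.58 and -0.25 in females at 10 and 0.26, -0.05 and 0.20 in females at 0, and -0.14, -0.12 and -0.44 in males at 10 and 0.13, 0.01 and 0.04 in males at 0. Neither pair of groups overlapped, and neither difference passed, at -0.53 ± 0.19 in females (adjusted p = 0.19) and -0.29 ± 0.19 in males (adjusted p = 0.304). Without female replicate 4 at 0.1, which takes no part in the comparison but in its estimate of spread, the female difference of Homer2 passed as lower (-0.53, adjusted p = 0.0437). Herc3, a HECT-type ubiquitin ligase, had differences from 0 between -0.14 and 0.10 over its 2 probe sets and a lowest adjusted p of 0.675. Its values ran from -0.18 to 0.40.

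**Figure D3:**
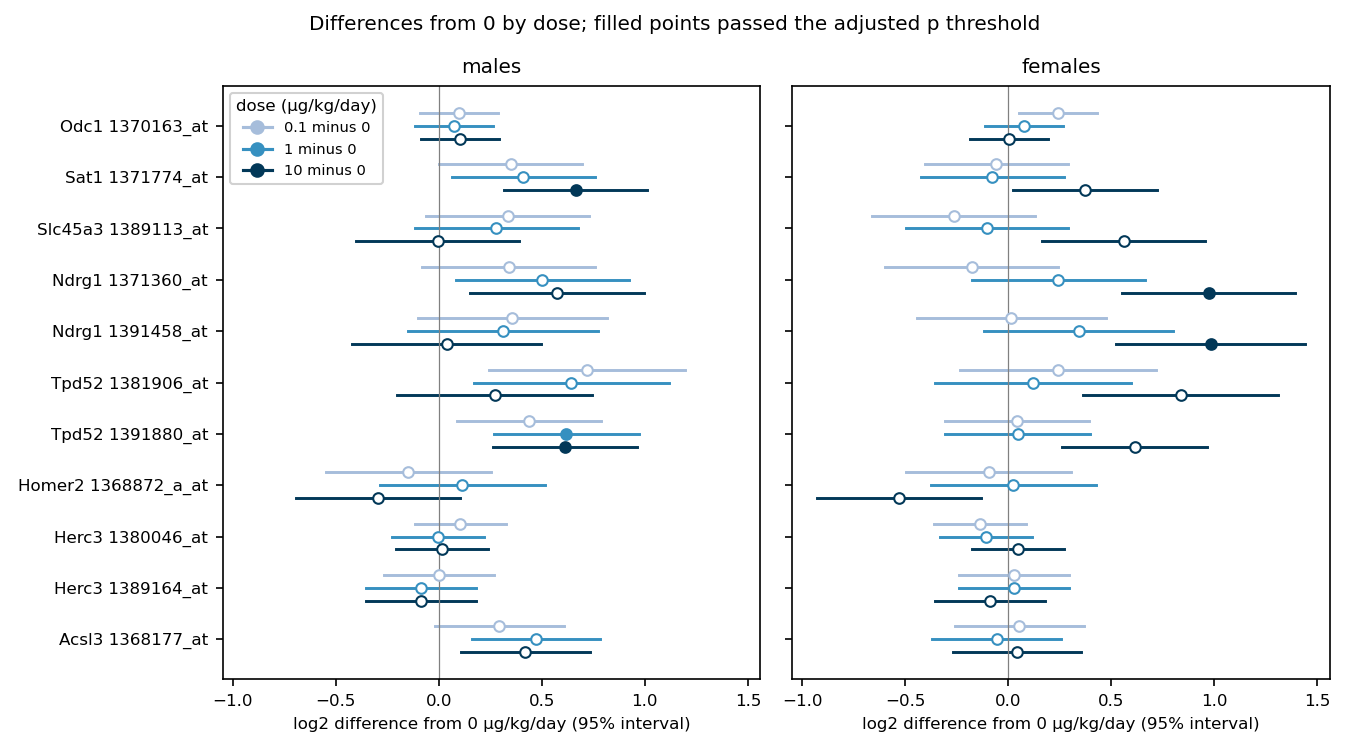
Log2 difference from 0 µg/kg/day (horizontal axis, bars are 95% intervals) of each member probe set (vertical axis) at 0.1, 1 and 10, in males (left) and females (right). Filled points passed the adjusted p threshold: Sat1 at 10 and Tpd52 1391880_at at 1 and 10 in males, and both Ndrg1 probe sets at 10 in females.

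Counted by non-overlap, members were apart from their controls in more comparisons than they passed. In males at 0.1, 1 and 10, 4, 5 and 6 of the 11 probe sets had groups that did not overlap, with backgrounds of 19.1%, 26.2% and 37.1% of all probe sets. In females at 0.1, 1 and 10 the counts were 0, 0 and 7, with backgrounds of 11.5%, 8.8% and 19.9%. Homer2 was the one of these that was lower in females at 10, and also in males at 0.1 and at 10. All the rest were higher. Between the 2 upper doses, 6 of 11 did not overlap for 10 against 1 in females (14.6% of all probe sets) and 2 of 11 in males (19%), the Slc45a3 and 1381906_at Tpd52 probe sets, both lower at 10. None of these step differences passed for a member, with backgrounds of 0.267% in females and 0.387% in males. At an unadjusted p of 0.05, 7 of 11 member probe sets in females and 1 of 11 in males were below that value for 10 against 1, with backgrounds of 10.1% and 9.41%.

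No difference between the sexes passed for a member. Subtracting the female from the male response gave 0 of 11 members past the threshold at 0.1, 1 and 10, with backgrounds of 0%, 0.0483% and 1.28%. At an unadjusted p of 0.05 the member counts were 1, 2 and 2, with backgrounds of 7.3%, 9.85% and 19%. Sms, of the polyamine list, did pass at 10, with 0.88 ± 0.21 for probe set 1375889_at (adjusted p = 0.0439). Its male difference was 0.76 and its female difference -0.12.

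Several members moved with the luminal markers from array to array within a group. After the mean of each of the 8 groups was removed, 11 correlations over 24 arrays were computed, with permutation p-values from 100000 shuffles within groups, adjusted by Benjamini-Hochberg. Slc45a3 gave r = 0.867 (rho 0.805, adjusted permutation p = 0.000506 for r and 0.000953 for rho), Tpd52 1391880_at r = 0.866 (rho 0.828, p = 0.000495 and 0.000935) and Sat1 r = 0.841 (rho 0.837, p = 0.000495 and 0.00066). For Tpd52 1381906_at r was 0.819 (rho 0.807, p = 0.00119 and 0.000953), for Ndrg1 1371360_at 0.806 (rho 0.787, p = 0.000495 and 0.000953) and for Ndrg1 1391458_at 0.779 (rho 0.793, p = 0.000495 and 0.000953). Without the 2 arrays farthest from the median of the marker mean, replicates 4 of both sexes at 0.1, these 6 stayed between 0.717 and 0.822. Herc3 1380046_at gave a lower r of 0.509 (rho 0.574, adjusted permutation p = 0.0231 and 0.0137), and 0.575 without those 2 arrays. The other 4 probe sets, of Odc1, Homer2, Acsl3 and Herc3 1389164_at, gave r between -0.41 and 0.02 with adjusted permutation p from 0.326 to 0.966. Basal epithelial markers, 10 genes of the contractile outer layer of the ducts, ran along with these members too. With the mean of each sex removed, r over the 24 arrays was 0.839 with the luminal and 0.822 with the basal mean for Sat1, 0.903 and 0.849 for Tpd52 1391880_at and 0.747 and 0.736 for Ndrg1 1371360_at. Within males alone Acsl3 also followed the luminal mean, at r = 0.7 over 12 arrays, and within females it gave -0.468. Members and markers were measured on the same RNA of each array. The within-group correlation was not computed for the other probe sets of the array, so no background stands beside it. Whether it is particular to the members was not tested.

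The luminal marker mean was then added to the fit as a covariate, an alternative chosen after seeing the data. The markers themselves passed as higher with 7 of 21 luminal probe sets in males at 10, 12 in males at 1 and 3 in females at 10, with backgrounds of 7.81%, 1.53% and 0.812% called higher. Of 13 basal probe sets 4 passed as higher and 1 as lower in males at 10, and likewise 4 and 1 in males at 1. In females at 10, 1 passed as higher and 0 as lower. The median difference of the 13 was 0.04 in males at 10, 0.65 in males at 1 and 0.26 in females at 10. The luminal mean itself differed between doses and came from the same RNA as the members. The fit with it therefore cannot tell cell content and RNA per cell apart. The basal markers were not used as a covariate, and their part was not tested. With the covariate, Sat1 in males at 10 was 0.29 ± 0.12 (adjusted p = 0.145) and Tpd52 1391880_at was 0.23 ± 0.11 (adjusted p = 0.251). Tpd52 1391880_at in males at 1 was 0.09 ± 0.12 (adjusted p = 0.886). Ndrg1 in females at 10 kept the call with 1371360_at, at 0.63 ± 0.14 (adjusted p = 0.0377), and lost it with 1391458_at, at 0.62 ± 0.16 (adjusted p = 0.064). In this fit Acsl3 passed in males at 10, at 0.56 ± 0.17 (adjusted p = 0.0459), and so did Slc45a3, at -0.45 ± 0.12 (adjusted p = 0.03). The male minus female difference at 10 also passed for Slc45a3, at -0.66 ± 0.15 (adjusted p = 0.0219), and for Ndrg1 1391458_at, at -1.05 ± 0.20 (adjusted p = 0.0134). The part of the adipocyte markers, and of the 9 keratinocyte markers, whose mean was 1.25 to 2.59 in males at 10 against -0.40 to -0.29 in males at 0, was not tested.

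**Figure D4:**
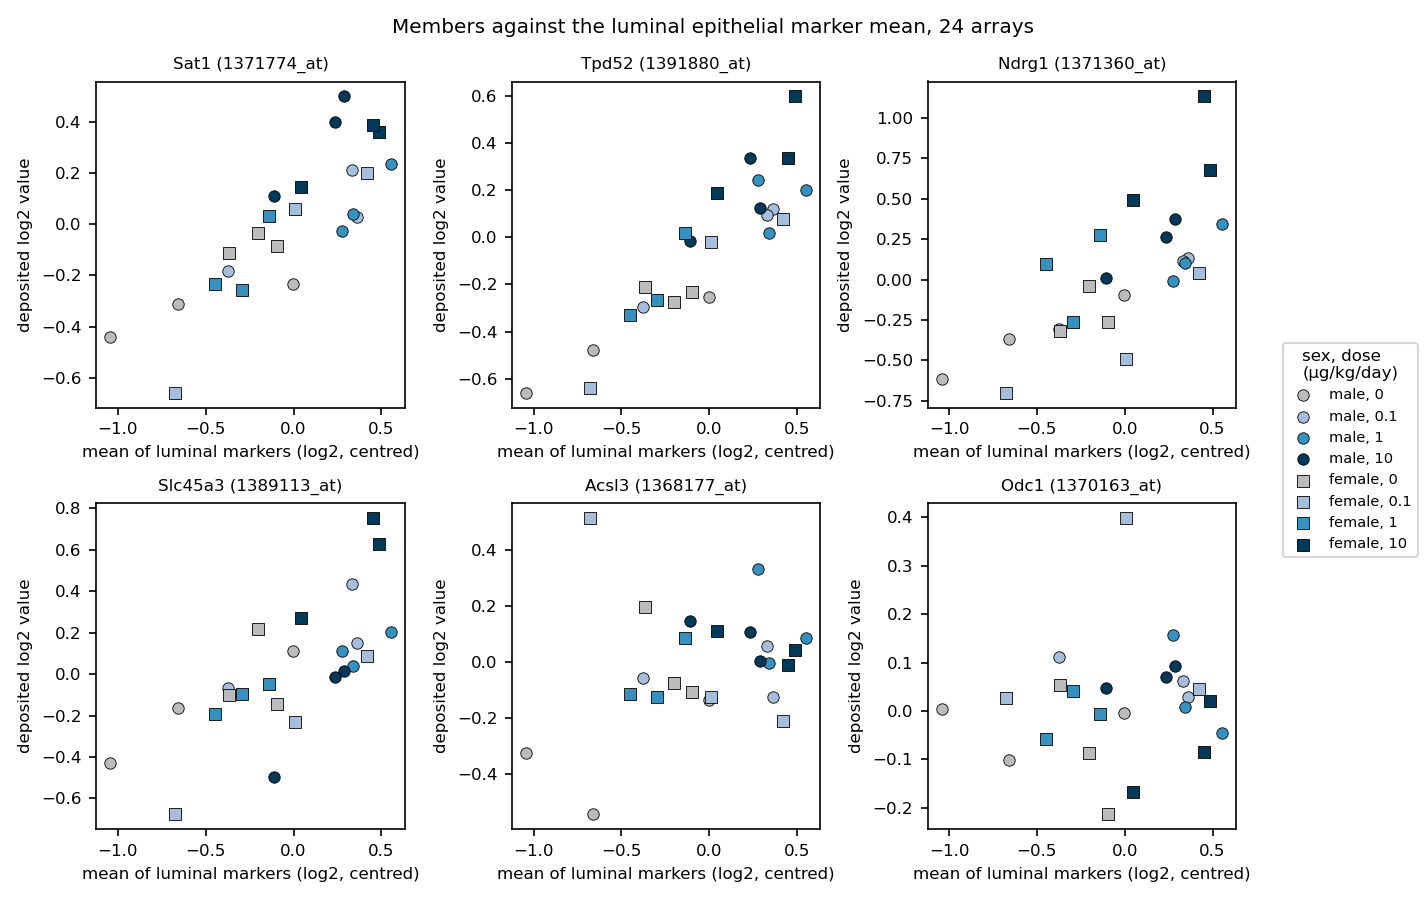
Deposited log2 values of 6 member probe sets (vertical axis) against the mean of 19 luminal epithelial markers (horizontal axis, log2), for 24 arrays. Circles are males, squares are females and darker colours are higher doses. Sat1, Tpd52, Ndrg1 and Slc45a3 climb with the marker mean in both sexes. Acsl3 climbs over the male arrays (r = 0.7) and not over the female ones (r = -0.468), and Odc1 gives r = 0.275 and -0.00154.

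The genes most like the members that passed were found by Pearson correlation over the 24 arrays after the mean of each sex was removed, as a description. For Sat1 they were Socs5 (r = 0.955), Chst1 (r = 0.94) and Tgif1 (r = 0.937). For Ndrg1 1371360_at they were Scnn1b (r = 0.946), Sectm1b (r = 0.945) and Cd14 (r = 0.93), and for 1391458_at they were Vdr (r = 0.903), Scnn1g (r = 0.895) and Qsox1 (r = 0.889). For Tpd52 1391880_at they were Trps1 (r = 0.966), Tfap2c (r = 0.955) and Sft2d2 (r = 0.95). Among the members, Sat1 and Tpd52 1391880_at correlated at r = 0.899, the 2 Ndrg1 probe sets at r = 0.882 and the 2 Tpd52 probe sets at r = 0.851, while the 2 Herc3 probe sets gave -0.05.

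Paralogs of the members, 37 probe sets for 21 genes, held a pair that changed in both sexes. Tpd52l1, a relative of Tpd52, had values of 1.24, 0.68 and 0.60 in females at 10 and -0.25, -0.47 and -0.24 in females at 0. Every array at 10 was above the controls, and the difference was 1.16 ± 0.24 (adjusted p = 0.019). In males it rose by 0.97 ± 0.24 at 1 (adjusted p = 0.0354) and by 0.80 ± 0.24 at 10 (adjusted p = 0.0308), where its arrays overlapped the controls. The male calls were unsteady: of 10 other fits, that at 10 held in 3, with differences down to 0.20 (adjusted p up to 0.503), and that at 1 in 6, down to 0.15 (adjusted p up to 0.824). The female call held in 8 of the 10. Acsl1, a fat cell relative of Acsl3, fell. With probe set 1388153_at its values were -0.67, -0.92 and -0.83 in males at 10 and 0.36, 0.38 and 0.39 in males at 0, groups far apart, with a difference of -1.18 ± 0.18 (adjusted p = 0.000228). In females at 10 Acsl1 fell by 0.83 with another probe set, 1370939_at (SE 0.17, adjusted p = 0.0137). Of its 3 probe sets, 2 passed in each sex at 10 and 1 in males at 1. In all 3 of the 37 passed in females at 10, 2 in males at 1 and 3 in males at 10 (8.11%, 5.41% and 8.11%), with the backgrounds of 1.86%, 3.63% and 17.5% above.

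A wider list of genes known to respond to androgens, mostly from human prostate cells, moved in both directions. Of 135 probe sets for 81 genes, 17 rose and 24 fell in males at 10 (30.4%), 6 rose and 8 fell in males at 1 (10.4%), and 4 rose and 3 fell in females at 10 (5.19%), with backgrounds of 17.5%, 3.63% and 1.86%. The list's median difference was -0.02, -0.0053 and 0.02, close to those of all probe sets. In males at 10 the largest changes were in Insig1, a brake on sterol synthesis (-1.23 ± 0.25), Map7, a microtubule-associated protein (1.18 ± 0.32), Tmprss2, an epithelial serine protease (1.11 ± 0.32), and Akap12, a scaffold of protein kinase A (-1.07 ± 0.17). Map7 passed there with 1 of its 3 probe sets, 1392916_at, and Tmprss2 with 1 of its 2, 1373329_at. In females at 10 the largest changes were in Insig1 (-1.39 ± 0.25), Map7 (0.95 ± 0.23), Pmepa1 (-0.92 ± 0.20) and Zbtb10 (0.81 ± 0.13). The female Map7 value is that of another probe set, 1383719_at, and 2 of the 3 passed. In males at 1 the largest changes were in the keratins Krt19 (1.36 ± 0.33) and Krt8 (1.26 ± 0.32), which also stand in the luminal marker list. Next came Spdef, an epithelial transcription factor (1.00 ± 0.27), and Sms (0.65 ± 0.15). With the luminal covariate Spdef in males at 1 and Map7 and Tmprss2 in males at 10 did not pass, while Insig1 and Akap12 in males at 10 did.

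Transcription coregulators, chaperones, pioneer factors and androgen-metabolising enzymes formed a further list with no gene past the threshold. Of 27 probe sets for 16 genes, limma called 0 in each of the 11 comparisons, where the backgrounds were 17.5% in males at 10, 3.63% in males at 1 and 1.86% in females at 10. Between 0 and 6 of the 27 were below an unadjusted p of 0.05 in a comparison. The count of 6 was in females at 0.1, with a background of 9.93%. There were 4 in males at 10 and 2 in females at 10, with backgrounds of 32.1% and 13%. The lowest p in females at 10 was that of Tmf1, a Golgi protein also known as a coactivator (0.35 ± 0.12, unadjusted p = 0.00732, adjusted p = 0.147). The pioneer factor Foxa1 gave 0.22 ± 0.09 in males at 1 (unadjusted p = 0.0261, adjusted p = 0.193).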

How the data were processed

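Abdominal mammary gland RNA was measured on 24 Affymetrix arrays, 8 groups of 3. The deposited values are signed logs, taken as log2, of 31099 probe sets. Their log base and how they were summarized and centred were not given in the sources used here. GCOS is named per the submitters' processing notes, its role not stated. A zero point set within each sex is inferred, since 2 arrays had equal and opposite values (tolerance 2e-06) in 42.2% of probe sets among males and 45.6% among females, but in 0.139% between a male and a female array. What it was for the rest is not known. No normalization was added, the array medians being -0.0176 to 0.0132. Depth does not apply to arrays, and their number limits the precision.

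After 57 controls were left out, 31042 probe sets were fitted with 8 group means (limma 3.58.1, R 4.3.3, lmFit and eBayes, 16 residual degrees of freedom), adjusted by Benjamini-Hochberg over all of them at 0.05. The fit was tested on simulated data. Of all probe sets, 20826 are annotated to 1 gene, 436 to several and 9780 to none. Named genes are the members, up to 4 genes a list with the largest change past the threshold in a comparison (2 at most, by lowest p, in a comparison without calls), and the 3 genes nearest each member that passed. Members and lists were chosen with earlier results of these data known. Alternatives covered normalization, array weights, tissue and RNA quality covariates, left-out arrays and a filter. Replicate numbers do not pair the samples: over 12 same-numbered pairs the correlation ran from -0.485 to 0.592, with 5 over 0.1. No genome build is named for the arrays.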

Additional observations from a re-analysis of the deposited data

Results flagged for a closer look

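Differences between the sexes in the response to 10 µg/kg/day passed for 5 genes of the androgen and polyamine lists, none of them a member. They were searched over 135 androgen and 22 polyamine probe sets, of which 3.7% and 4.55% passed, with a background of 1.28%. Sms stands in both lists, so its probe set counts in both shares and is the only polyamine call. For each of the 5 genes 1 of its 2 probe sets passed. Each value is the male difference from dose 0 minus the female difference, in log2 units, from limma over all probe sets. Sms, spermine synthase, gave 0.88 ± 0.21 (adjusted p = 0.0439), with 0.76 in males and -0.12 in females. Sord, sorbitol dehydrogenase, gave -0.71 ± 0.15 (adjusted p = 0.0255), with -0.71 in males and -0.0038 in females. Stk39, a kinase that regulates ion cotransporters, gave -0.76 ± 0.15 (adjusted p = 0.0249), with -0.75 in males and 0.0059 in females. Hpgd, which breaks down prostaglandins, gave -1.03 ± 0.25 (adjusted p = 0.0472), with -0.99 in males and 0.04 in females. Ell2, a transcription elongation factor, gave -0.57 ± 0.12 (adjusted p = 0.0255), with -0.42 in males and 0.15 in females, and was named after its values were seen. With each array left out in turn, the calls of Sms and Hpgd held in 9 and 5 of 24 fits, those of Stk39 and Sord in 18 and 17. In 11 other fits, with changed normalization, weights, covariates, arrays, filter or block, Sms held in 6, Hpgd in 5, Stk39 in 8 and Sord in 8. Ell2 was not followed in these fits.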

How the results depend on the processing

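Against dose 0, the member probe sets past the threshold numbered 2 in females at 10, 1 in males at 1 and 2 in males at 10, and these counts depended on the fit. In females at 10 it was 0 when only these 2 groups were fitted and without the 5 arrays with hepatocyte transcripts, 1 with the luminal covariate, 4 with quantile normalization, with scaling to a common median absolute deviation, with array weights, with hepatocyte and skeletal muscle covariates and with the beta-actin covariate, and 5 without the 2 widest arrays (female replicate 4 at 0.1 and male replicate 1 at 0), of which 1, Homer2, was lower. In males at 1 it was 0 without the 5 arrays, without the 2 widest arrays and with the luminal covariate, and 2 with array weights or with the hepatocyte and muscle covariates. In males at 10 it was 4 with array weights, 3 without the 2 widest arrays, 1 with the hepatocyte and muscle covariates, 0 with the beta-actin covariate and 0 without the 5 arrays. For 10 against 1 in females it was 1 with scaling or with the hepatocyte and muscle covariates, and for the sex difference at 10 it was 1 with those covariates and 2 with the luminal covariate. With 1 array left out the counts ran from 0 to 5 in females at 10, from 0 to 3 in males at 1 and from 0 to 4 in males at 10, and were 0 in the other 8 comparisons. The cause was not tested. Testing only probe sets annotated to 1 gene left all 11 counts at their values. No member or named gene that passed changed direction. With the replicate number as a block, possible only for the sex differences, the member count was 0 at each of the 3 doses, as without the block, and in 0 of 12 pairs was the correlation highest with the own number.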
